A study of Mus musculus with 17 samples.

Results

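The Toll-like receptor family was followed in mouse whole blood 24 h after total-body X-rays, through 10 genes: Tlr1, Tlr2, Tlr3, Tlr4, Tlr5, Tlr6, Tlr7, Tlr8, Tlr9 and Tlr13. They were taken by symbol from 18193 genes with a probe set that the platform annotation gives to a single symbol, and each gene was read from its brightest such probe set, by mean level across all 17 arrays. All groups were female C57BL/6JJcl mice aged 8 weeks, with no transgene or other agent named in the labels. The 5 controls received 0 Gy, and 4 mice each received 0.5, 1.0 or 3.0 Gy. Each mouse gave 1 blood sample and 1 array, so the spread between arrays includes the spread between animals.

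Toll-like receptors are sensors of the innate immune system that recognise molecules of microbes and of damaged cells. Tlr1, Tlr2, Tlr4, Tlr5 and Tlr6 act at the cell surface, whereas Tlr3, Tlr7, Tlr8, Tlr9 and Tlr13 act in endosomes and read nucleic acids. Each carries a TIR domain inside the cell that recruits adaptors, Myd88 for most of them, and the signal ends in NF-kB and interferon regulatory factors. In blood they are known mainly from neutrophils, monocytes, dendritic cells and B cells, each of which carries its own set of receptors.

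Levels are log2 RMA values as the authors deposited them, so a difference of 1 is a 2-fold change. Levels of different probe sets are not comparable with each other. Array medians lay between 3.47 and 3.57, and a gene entered the tests if 4 or more arrays held its probe set above their own median. Of the 10 receptors 8 passed, among 12696 genes tested. Tlr3 and Tlr8 did not pass, with 0 of 17 arrays above the array median for either gene. Differences were tested with limma over all 17 arrays, and a gene was called when its Benjamini-Hochberg adjusted p over the tested genes was under 0.05. Among markers of blood cells, 11 of 11 platelet, 10 of 11 neutrophil and 9 of 11 B cell genes lay above the 75th percentile of the array in every control. Control probe sets for 18S ribosomal RNA had a mean level of 10.52 ± 0.49 (SD, n = 5) in controls and 10.68 ± 0.14 (n = 4) at 3.0 Gy, but 12.69 ± 0.77 at 0.5 Gy and 13.28 ± 0.28 at 1.0 Gy. Results at 0.5 or 1.0 Gy thus rest on arrays that also differ in this measure, and values from a fit that holds it as a term are given where a call ends. Because the 18S level largely follows the dose groups, errors at the lower doses are wider in that fit. The SE of Tlr1 at 1.0 Gy was 0.53 with the term and 0.21 without it. A call that ends in that fit therefore does not show that the difference is absent.

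At 3.0 Gy, 4 of the 8 tested receptors changed: Tlr1 fell, and Tlr4, Tlr5 and Tlr13 rose. The share of all tested genes called in that comparison was 49.1%, so the count for the receptors is near the background. By direction, 3 of 8 receptors were called higher, where 20% of all genes were, and 1 of 8 lower, where 29.2% of all genes were. At 1.0 Gy 2 of 8 rose, Tlr5 and Tlr13, and 0 fell, where 17.3% of all genes were called, 8.8% higher and 8.49% lower. At 0.5 Gy limma called 0 of 8, where 10.2% of all genes were called, and 1 receptor, Tlr5, had an unadjusted p under 0.05. The median log2 difference of the 8 receptors was 0.00 at 0.5 Gy, 0.06 at 1.0 Gy and 0.18 at 3.0 Gy, beside -0.02, -0.04 and 0.04 over all tested genes. The 3 dose comparisons share the same 5 controls. Between 3.0 and 1.0 Gy 4 of 8 receptors were called, Tlr4 and Tlr9 higher and Tlr1 and Tlr7 lower, where 38.6% of all genes were, 15.9% higher and 22.7% lower. Between 3.0 and 0.5 Gy 2 of 8 were called, Tlr4 higher and Tlr1 lower, where 33.8% of all genes were, 12.9% higher and 20.9% lower. Between 1.0 and 0.5 Gy limma called 0 of 8 receptors and 0.0158% of all genes, all of them lower, and Tlr7 alone among the receptors had an unadjusted p under 0.05. With the 18S level in the fit, 0 of 8 were called in either comparison of 3.0 Gy with a lower dose. This count cannot show that the differences are absent: for Tlr4 between 3.0 and 1.0 Gy the difference was 0.63 in that fit and 0.53 without the term.

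**Figure D1:**
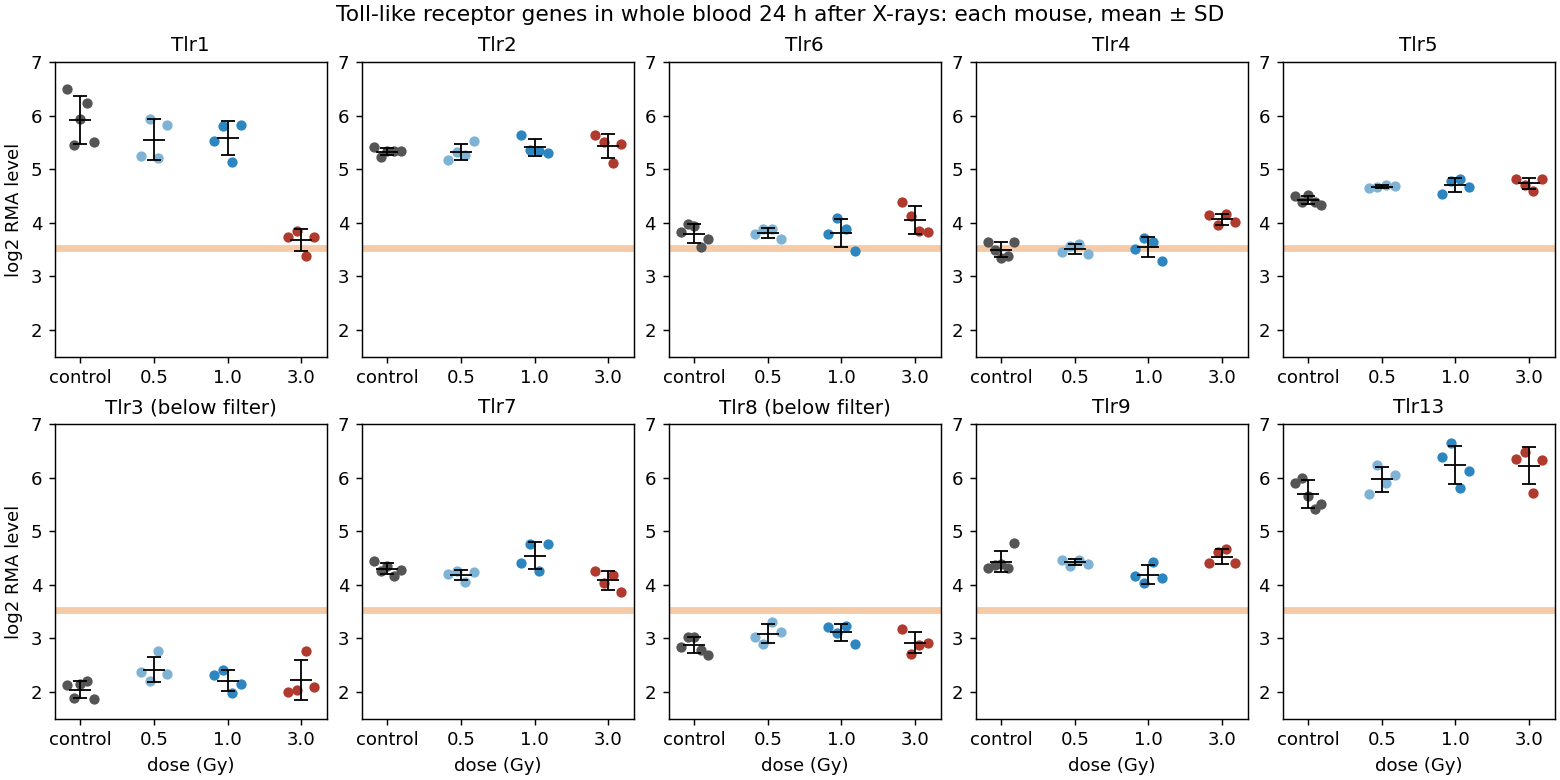
Log2 RMA level of each receptor gene (y axis) by dose in Gy (x axis), with 1 point per mouse and the mean ± SD of the group (n = 5 for control, n = 4 for each dose); the shaded band spans the array medians, 3.47 to 3.57. Tlr1 at 3.0 Gy drops from 5.92 in controls to 3.67, into the neighbourhood of the array median, while the other receptors move by at most 0.57.

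Tlr1 pairs with Tlr2 to recognise bacterial lipoproteins that carry a triacylated tail. It was the receptor with the largest difference at 3.0 Gy, and it lies next to Tlr6, its closest relative, in the gene order of chromosome 5 (mouse assembly GRCm38.p6). The promoters of both are shown because Tlr1 was called lower at 3.0 Gy and Tlr6 was not, together with that of Tlr5, a receptor that rose. The sequences are RefSeq's on GRCm38.p6, run 5′ to 3′ from 250 bases before to 50 bases after an annotated start, and where a gene has several starts the most upstream one is given. Capitals mark matches to 4 motifs searched on both strands, namely AGGAAGT for ETS factors such as PU.1, GAAA and GAAA with 2 free bases between them for the interferon-stimulated response element, GGGA and CC with 4 free bases between them for NF-kB, and ATGCAAAT for the octamer.
Tlr1, chr5:64933509-64933808, minus strand: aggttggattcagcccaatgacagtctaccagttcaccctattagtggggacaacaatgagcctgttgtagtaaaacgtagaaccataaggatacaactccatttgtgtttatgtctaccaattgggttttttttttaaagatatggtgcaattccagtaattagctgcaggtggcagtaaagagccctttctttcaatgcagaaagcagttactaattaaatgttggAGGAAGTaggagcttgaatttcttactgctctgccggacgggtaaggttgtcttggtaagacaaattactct
Tlr6, chr5:64959999-64960298, minus strand: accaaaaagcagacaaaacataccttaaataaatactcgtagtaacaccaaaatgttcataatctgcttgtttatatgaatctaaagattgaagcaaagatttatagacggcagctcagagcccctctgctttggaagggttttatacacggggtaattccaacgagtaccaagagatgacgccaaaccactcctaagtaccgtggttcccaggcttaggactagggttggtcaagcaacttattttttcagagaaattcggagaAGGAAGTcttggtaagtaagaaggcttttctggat
Tlr5, chr1:182954538-182954837, plus strand: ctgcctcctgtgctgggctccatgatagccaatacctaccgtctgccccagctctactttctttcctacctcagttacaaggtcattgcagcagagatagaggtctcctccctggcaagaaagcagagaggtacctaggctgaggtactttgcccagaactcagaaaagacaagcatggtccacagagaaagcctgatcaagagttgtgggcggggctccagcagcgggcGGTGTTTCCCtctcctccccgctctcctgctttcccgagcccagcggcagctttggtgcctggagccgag
The printed Tlr1 and Tlr6 promoters each held 1 AGGAAGT match, which 9.35% of the 32851 promoters in the table hold. The printed Tlr5 promoter held 1 NF-kB match, which 20.7% of promoters hold. None of these printed matches overlapped another motif. The second start of Tlr1 held 0 matches, and that of Tlr6 held 1 AGGAAGT match and 2 overlapping matches to the interferon-stimulated response element, which 3.44% of promoters hold. In all, 8 of the 10 receptors had a promoter in the table, Tlr4 and Tlr7 being the others. Which start is used in blood was not measured, and a match is only a string of letters in this window.

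In the control mice Tlr1 (probe set 1449049_at) stood at 6.49, 5.45, 5.95, 6.23 and 5.50. The 0.5 Gy mice had 5.24, 5.94, 5.22 and 5.82, and those given 1.0 Gy 5.53, 5.80, 5.14 and 5.83. Those given 3.0 Gy had 3.73, 3.86, 3.38 and 3.73. Mice at the lower doses overlapped with the controls, whereas every mouse at 3.0 Gy lay more than 1 unit below every other mouse of the study. The group mean went from 5.92 ± 0.45 to 3.67 ± 0.20, a log2 difference of -2.25 ± 0.21 (SE, 95% interval -2.70 to -1.80, limma adjusted p = 1.3e-07), or 4.76-fold lower. Of all tested genes 22.9% lay below all controls in every 3.0 Gy array. At 0.5 Gy 0 of 8 receptors lay below all controls in every array, where 4.54% of all genes did, and at 1.0 Gy 0 of 8, where 6.38% did. Tlr1 lay above its array's own median in 3 of 4 mice at 3.0 Gy. At 0.5 Gy the difference from control was -0.37 (95% interval -0.82 to 0.08, adjusted p = 0.344) and at 1.0 Gy -0.35 (95% interval -0.79 to 0.10, adjusted p = 0.311), neither of which passed. With a term for the 18S level these were -0.97 (adjusted p = 0.261) and -1.11 (adjusted p = 0.304), which did not pass either. Between the irradiated groups, Tlr1 was lower at 3.0 Gy than at 1.0 Gy, with a log2 difference of -1.90 ± 0.23 (SE, adjusted p = 1.14e-05), and than at 0.5 Gy, with one of -1.88 ± 0.23 (SE, adjusted p = 1.13e-05), while 1.0 and 0.5 Gy differed by 0.02 (95% interval -0.45 to 0.50, adjusted p = 0.997). Adding the 18S level as a term, the fall against control was -2.29 ± 0.21, and the difference between 3.0 and 1.0 Gy was -1.18 and no longer called (adjusted p = 0.384).

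Marker genes of B cells moved with Tlr1. The B cell list had 10 of 11 tested genes lower and 0 higher at 3.0 Gy, with a median log2 difference of -2.56, and 1 of 11 lower at each of the lower doses. Its mean level ranged from 7.13 to 7.87 over controls and from 4.53 to 5.92 at 3.0 Gy. T cell markers also fell, with 7 of 9 lower at 3.0 Gy, and their mean ranged from 6.94 to 7.74 over controls and from 5.58 to 5.89 at 3.0 Gy. At 0.5 and 1.0 Gy, 2 and 4 of the 9 T cell genes were called lower. Of 9 plasmacytoid dendritic cell genes 2 were lower and 1 higher at 3.0 Gy, with means of 5.12 to 5.28 in controls and 4.64 to 4.99 at that dose. Of 7 conventional dendritic cell genes 2 were lower and 0 higher, with means of 5.43 to 5.61 and 4.83 to 4.97. Of 11 monocyte genes 7 were lower and 1 higher, with means of 6.02 to 6.65 in controls and 5.65 to 6.27 at 3.0 Gy. At that dose 29.2% of all tested genes were called lower and 20% higher. At 0.5 and 1.0 Gy, 5% and 8.49% of all tested genes were called lower. In bulk blood, fewer cells of a type and less RNA per cell cannot be told apart, and the part of these markers in the Tlr1 result was not tested.

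**Figure D2:**
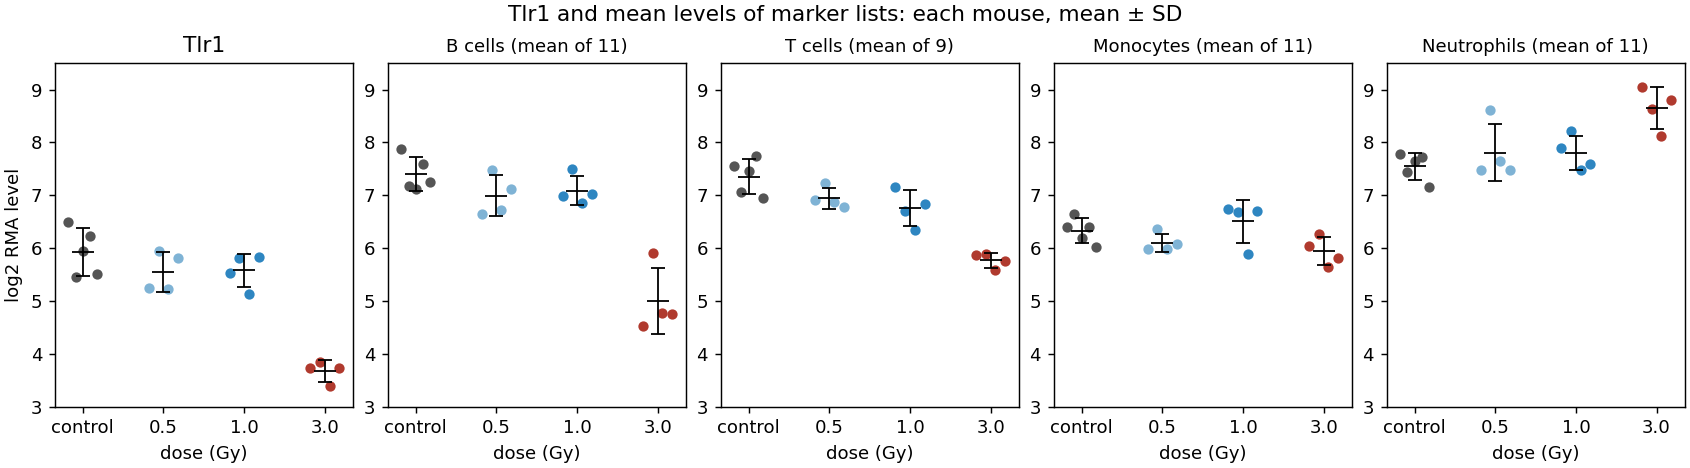
Log2 RMA level (y axis) of Tlr1 and mean log2 level of the B cell, T cell, monocyte and neutrophil marker lists by dose in Gy (x axis), with 1 point per mouse and the mean ± SD of the group. At 3.0 Gy Tlr1, the B cell mean (at most 5.92, against at least 7.13 in controls) and the T cell mean (5.77 against 7.35) are lower in every mouse than in any control, and the neutrophil mean (8.66 against 7.55) is higher in every mouse.

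Tlr2, which forms pairs with Tlr1 and with Tlr6, showed no called change. Tlr2 (probe set 1419132_at) stood at 5.41, 5.22, 5.35, 5.33 and 5.33 in controls and at 5.65, 5.50, 5.12 and 5.47 at 3.0 Gy, with 3 of 4 irradiated mice above all controls and 1 below all of them. The log2 difference was 0.10 (95% interval -0.13 to 0.34, adjusted p = 0.454), and it was -0.01 at 0.5 Gy and 0.08 at 1.0 Gy. A repeated quantile normalization gave 0.28 at 3.0 Gy and a call (adjusted p = 0.0349). Tlr6, the partner of Tlr2 for lipoproteins with a diacylated tail, stood at 3.83, 3.98, 3.95, 3.54 and 3.70 in controls (probe set 1421352_at). At 3.0 Gy Tlr6 had 4.38, 4.13, 3.84 and 3.84, so that 2 of 4 mice lay above all controls. Its difference was 0.25 (95% interval -0.04 to 0.54, adjusted p = 0.14), beside 0.01 at both lower doses. These intervals leave room for rises of Tlr2 and Tlr6, and that of Tlr2 leaves none for a fall of the size seen for Tlr1. Tlr6 stood at 3.80 in controls, near the array medians of 3.47 to 3.57, where RMA compresses differences. Its values therefore could hardly show a fall of that size.

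The partners were set against each other within each array, by the difference of their log2 levels. These 3 pairs were chosen after the values were seen, and 9 comparisons were made by exact permutation (two-sided), where the 126 ways to regroup the mice allow no p below 0.00794. The comparisons of Tlr1 at 3.0 Gy therefore restate its fall and are no separate support for it. At 3.0 Gy the change of Tlr1 minus that of Tlr2 was -2.35 (exact p = 0.00794, adjusted p = 0.0357), and the within-array difference was below all controls in 4 of 4 mice. The change of Tlr1 minus that of Tlr6 was -2.50 (exact p = 0.00794, adjusted p = 0.0357), again in 4 of 4 mice. Tlr6 lay near the array medians in controls, so a fall of Tlr6 could hardly enter this difference. Tlr6 and Tlr2 changed by amounts that differed by 0.14 (exact p = 0.325, adjusted p = 0.418). At 0.5 and 1.0 Gy none of the 6 comparisons passed, with differences between -0.43 and 0.02.

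Tlr4 is the receptor for bacterial lipopolysaccharide, which it binds together with Ly96 (MD-2) after transfer from Cd14. Its probe set 1418163_at read 3.64, 3.48, 3.35, 3.38 and 3.65 in controls and 4.14, 3.96, 4.17 and 4.01 at 3.0 Gy. Every 3.0 Gy mouse lay above every control and above every mouse at the lower doses, where values ran from 3.29 to 3.72. The log2 difference at 3.0 Gy was 0.57 ± 0.11 (SE, adjusted p = 0.000228), and it was 0.01 at 0.5 Gy and 0.04 at 1.0 Gy. This probe set was itself dim at baseline, above its array's own median in 2 of 5 controls, 2 of 4 mice at 0.5 Gy, 3 of 4 at 1.0 Gy and 4 of 4 at 3.0 Gy. Of all tested genes 14.2% lay above all controls in every 3.0 Gy array. Against 1.0 Gy the rise was 0.53 ± 0.11 (SE, adjusted p = 0.00165), and this call ended once the 18S level was a term (0.63, adjusted p = 0.385).

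The rise of Tlr4 was read by 1 of its 4 probe sets. Probe set 1418162_at of Tlr4 went from 2.98 ± 0.16 in controls to 3.40 ± 0.30 at 1.0 Gy and 3.09 ± 0.15 at 3.0 Gy, a difference of 0.11 (adjusted p = 0.58) at 3.0 Gy. The other Tlr4 probe sets, 1430695_at and 1442827_at, differed by 0.13 (adjusted p = 0.309) and 0.14 (adjusted p = 0.412). These 3 sets were dimmer still, above the array median in 1 of 17 arrays for 1418162_at and in 0 for the others. Between 3.0 and 1.0 Gy, 1418162_at moved the other way (-0.31, adjusted p = 0.14). Neutrophil markers moved with probe set 1418163_at: 10 of 11 were higher at 3.0 Gy, with a median log2 difference of 1.13, and their mean level ranged from 7.15 to 7.77 in controls and from 8.12 to 9.05 at 3.0 Gy. At 0.5 Gy 1 of the 11 neutrophil markers was called higher and 0 lower, and at 1.0 Gy 1 was higher and 1 lower. Platelet markers were called higher in 11 of 11 genes at each dose. Of all tested genes 5.24%, 8.8% and 20% were called higher at 0.5, 1.0 and 3.0 Gy. The part of neutrophil and platelet markers in the Tlr4, Tlr5 and Tlr13 results was not tested.

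**Figure D3:**
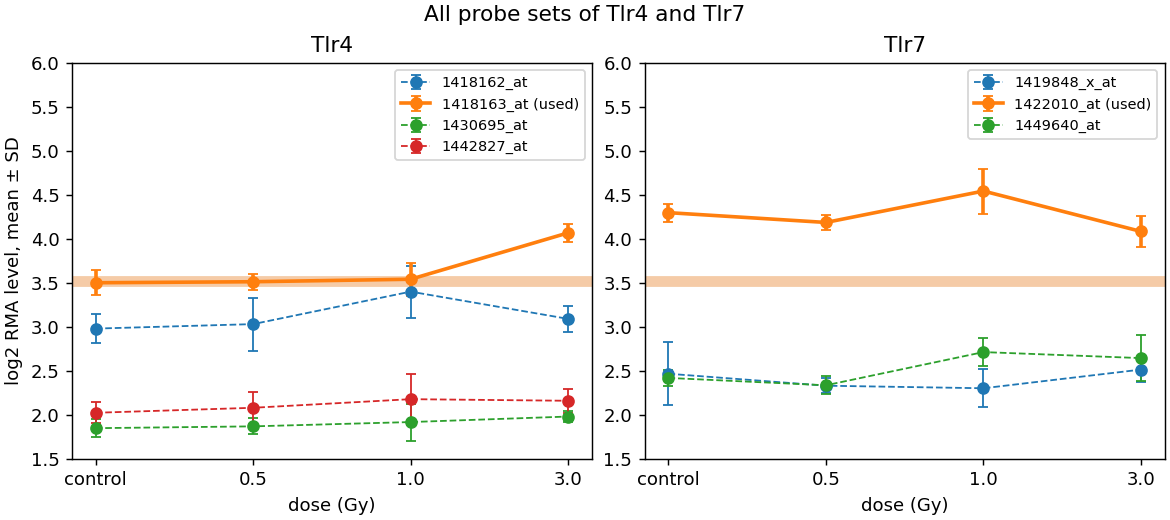
Mean ± SD of the log2 RMA level (y axis) by dose in Gy (x axis) for each probe set of Tlr4 and Tlr7, with the one used drawn solid and the others dashed; lines join group means only as a guide, and the shaded band spans the array medians. For Tlr4 the set 1418163_at alone rises at 3.0 Gy (4.07 against 3.50 in controls), and for Tlr7 the set 1422010_at is high at 1.0 Gy (4.54) and low at 3.0 Gy (4.09), while 1449640_at is at 2.71 and 2.64 and 1419848_x_at at 2.30 and 2.51.

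Tlr5 recognises bacterial flagellin. Its probe set 1450242_at read 4.50, 4.40, 4.52, 4.40 and 4.34 in controls. The 0.5 Gy mice had 4.65, 4.66, 4.70 and 4.69, those at 1.0 Gy had 4.53, 4.78, 4.82 and 4.67, and those at 3.0 Gy had 4.82, 4.71, 4.60 and 4.82. All 12 irradiated mice lay above all 5 controls, although the margin was small, from 4.52 for the highest control to 4.53 for the lowest irradiated mouse. All arrays of a dose lay above all controls for 6.66% of tested genes at 0.5 Gy, 7.88% at 1.0 Gy and, as for Tlr4, 14.2% at 3.0 Gy. Tlr5's log2 differences were 0.24 ± 0.09 at 0.5 Gy (SE, adjusted p = 0.104), 0.27 ± 0.09 at 1.0 Gy (adjusted p = 0.0482) and 0.31 ± 0.09 at 3.0 Gy (adjusted p = 0.00894), the last a 1.24-fold rise. The doses did not differ from each other by a called amount, with 0.02 between 1.0 and 0.5 Gy (95% interval -0.18 to 0.23) and 0.04 between 3.0 and 1.0 Gy (95% interval -0.16 to 0.24). The call at 1.0 Gy ended in 14 of 17 fits that each left out 1 array, with adjusted p up to 0.126, while the call at 3.0 Gy held in 17 of 17, with adjusted p up to 0.0316.

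Tlr13, an endosomal receptor for bacterial ribosomal RNA, rose at the 2 higher doses. Its probe set 1457753_at read 5.91, 6.00, 5.66, 5.41 and 5.50 in controls and 5.69, 6.23, 5.90 and 6.05 at 0.5 Gy. Tlr13 had 6.38, 6.65, 5.81 and 6.13 at 1.0 Gy and 6.36, 6.48, 5.71 and 6.34 at 3.0 Gy. At either higher dose 3 of 4 mice lay above all controls, and replicate 3 lay within their range. The log2 difference was 0.27 ± 0.18 at 0.5 Gy (SE, adjusted p = 0.434), 0.55 ± 0.18 at 1.0 Gy (adjusted p = 0.0446) and 0.52 ± 0.18 at 3.0 Gy (adjusted p = 0.0232), the last a 1.44-fold rise. The call at 1.0 Gy ended in 10 of 17 fits without 1 array (adjusted p up to 0.165). That at 3.0 Gy ended without control replicate 4 (adjusted p = 0.0627) and without 3.0 Gy replicate 1, 2 or 4 (0.0635, 0.072 and 0.0606). Once the 18S level was a term, limma called 0 of 8 receptors at 1.0 Gy, as Tlr5 then stood at 0.22 (adjusted p = 0.758) and Tlr13 at 0.53 (adjusted p = 0.683), and both rises at 3.0 Gy remained called.

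Tlr7, a sensor of single-stranded RNA, was called between 3.0 and 1.0 Gy but at no single dose against control. Its probe set 1422010_at read 4.43, 4.26, 4.36, 4.17 and 4.27 in controls, 4.20, 4.25, 4.06 and 4.24 at 0.5 Gy, 4.40, 4.76, 4.26 and 4.76 at 1.0 Gy and 4.26, 4.04, 4.19 and 3.86 at 3.0 Gy. The 3.0 Gy mice did not overlap with those at 1.0 Gy, apart from a lowest 1.0 Gy value equal to the highest 3.0 Gy value. Tlr7 at 3.0 Gy was below that at 1.0 Gy, with a log2 difference of -0.46 ± 0.13 (SE, adjusted p = 0.00856). Against control Tlr7 stood at 0.25 (adjusted p = 0.182) at 1.0 Gy and -0.21 (adjusted p = 0.143) at 3.0 Gy. The dimmer Tlr7 probe sets did not pass, with 1449640_at at -0.07 (adjusted p = 0.686) and 1419848_x_at at 0.21 (adjusted p = 0.317) between 3.0 and 1.0 Gy, both below the array median in every array. A term for the 18S level gave -0.33 (adjusted p = 0.695).

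Tlr9 binds DNA with unmethylated CpG. Its probe set 1422083_at read 4.32, 4.37, 4.38, 4.31 and 4.77 in controls, so that control replicate 5 stood apart from the others. At 0.5 Gy Tlr9 ranged from 4.35 to 4.47, at 1.0 Gy it had 4.17, 4.03, 4.43 and 4.13, and at 3.0 Gy 4.40, 4.61, 4.67 and 4.41. No dose passed against control, with differences of -0.01, -0.24 (95% interval -0.48 to 0.00, adjusted p = 0.177) and 0.10 (95% interval -0.14 to 0.33, adjusted p = 0.496). Between 3.0 and 1.0 Gy Tlr9 was higher by 0.33 ± 0.12 (SE, adjusted p = 0.036), which ended without 1.0 Gy replicate 1, 2 or 4 or 3.0 Gy replicate 2 or 3 (adjusted p between 0.073 and 0.109). It also ended with arrays centred on their medians (0.28, adjusted p = 0.0612), with only the 2 groups in the fit (adjusted p = 0.0642) and with the 18S level as a term (0.52, adjusted p = 0.485).

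Tlr3, the sensor of double-stranded RNA, and Tlr8, a sensor of single-stranded RNA that lies next to Tlr7 on the X chromosome, were too dim to be tested with the other genes. Tlr3 (probe set 1422782_s_at) ranged from 1.86 to 2.77 over the 17 arrays and Tlr8 (probe set 1450267_at) from 2.68 to 3.303, all below the array medians. In a fit without the filter, over 18193 genes, Tlr3 differed from control by 0.37 (adjusted p = 0.191), 0.17 (adjusted p = 0.575) and 0.18 (adjusted p = 0.369) at the rising doses. Tlr8 differed by 0.22 (adjusted p = 0.369), 0.24 (adjusted p = 0.229) and 0.05 (adjusted p = 0.752). No difference passed for either gene. Tlr3 at 0.5 Gy had an unadjusted p of 0.0251, and 4 of 4 mice, at 2.38, 2.21, 2.76 and 2.33, lay above all controls, whose highest value was 2.205. Of the genes that passed the filter 6.66% had every 0.5 Gy array above all controls, and the share among dimmer genes was not counted. The other Tlr3 probe set, 1422781_at, differed by -0.02 at 0.5 Gy (limma adjusted p = 0.966 over all single-symbol probe sets).

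**Figure D4:**
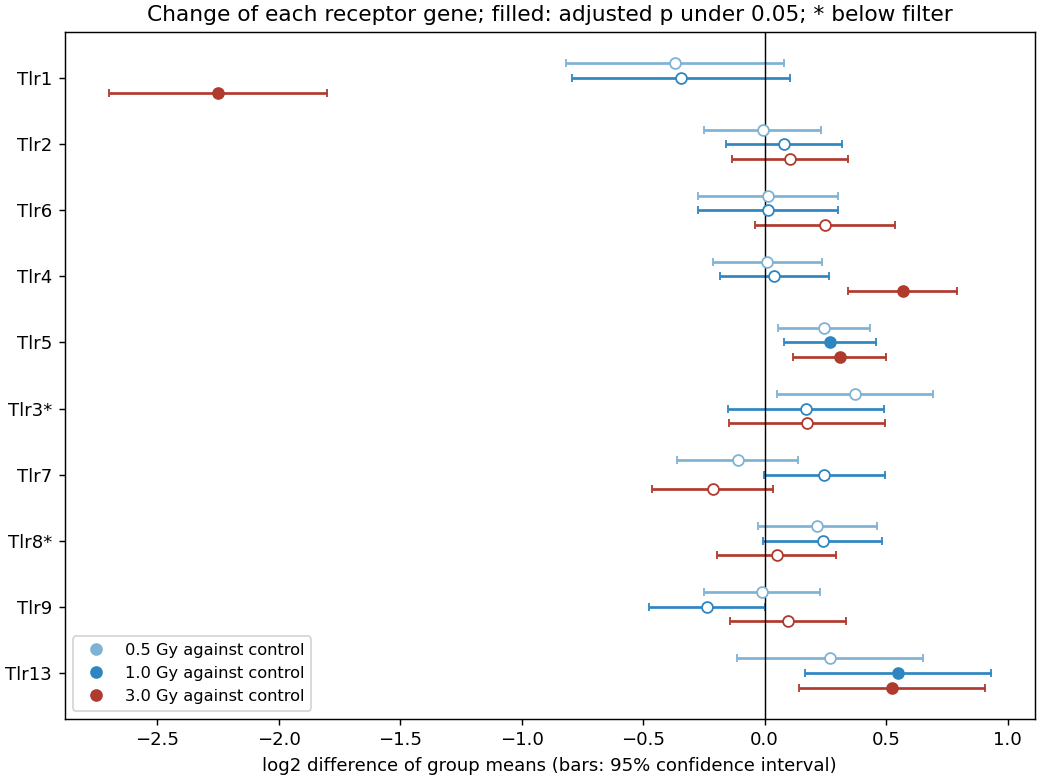
Log2 difference of each receptor from control (x axis, with 95% confidence interval) at 0.5, 1.0 and 3.0 Gy, where filled points passed an adjusted p of 0.05 and an asterisk marks genes below the filter. Tlr1 at 3.0 Gy, at -2.25, stands far from the other points, which lie between -0.37 and 0.57.

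Over all doses, the F test for a change at any dose called 5 of 8 receptors, Tlr1 (adjusted p = 6.53e-07), Tlr4 (0.000611), Tlr7 (0.0256), Tlr5 (0.0258) and Tlr13 (0.047), against 48.2% of all genes. A linear slope on dose was called for 3 of 8, 2 upward and 1 downward, where 47.4% of all genes were, 19.9% upward and 27.5% downward. The slope was -0.76 ± 0.07 per Gy for Tlr1 (SE, adjusted p = 5.19e-07), 0.20 ± 0.03 for Tlr4 (adjusted p = 0.00012) and 0.08 ± 0.03 for Tlr5 (adjusted p = 0.0442). The slope call of Tlr5 ended in 9 of 17 fits that left out 1 array, namely any 1 of the 5 controls, 1.0 Gy replicate 4 or 3.0 Gy replicate 1, 2 or 4 (adjusted p from 0.0502 to 0.102). It also ended with arrays centred on their medians (0.07, adjusted p = 0.102), with the replicate number as a block (0.07, adjusted p = 0.106) and with array weights (adjusted p = 0.051). The group means of Tlr4 were 3.50, 3.51, 3.54 and 4.07 from control to 3.0 Gy, and those of Tlr1 were 5.92, 5.55, 5.58 and 3.67. Most of the change of either gene lay between 1.0 and 3.0 Gy, so its slope does not show a graded change over the doses. The count of the F test was 3 without control replicate 4 or 5, 1.0 Gy replicate 2 or 4 or 3.0 Gy replicate 4.

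The genes most like the 4 receptors with the smallest F test p were found by the root-mean-square difference over the 17 arrays between log2 levels centred on the control mean. For Tlr1 they were Akap8, a nuclear A-kinase anchoring protein, at 0.17, Rnf145, a ubiquitin ligase, at 0.18, and Chtop, a chromatin and mRNA export factor, at 0.19, with 3.0 Gy differences of -2.11, -2.15 and -2.17. For Tlr4 they were Hivep3 at 0.11, Sorcs3 at 0.11 and Insc at 0.14, with 3.0 Gy differences of 0.48, 0.67 and 0.48. For Tlr7 they were 4933427D14Rik at 0.12, Fbxo25 at 0.13 and Herc3 at 0.15, and for Tlr5 Tubgcp4, Cog4 and Utp14b, each at 0.10. None of the 12 genes is a member of the marker or pathway lists used here.

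The proteins that carry the receptors' signal were counted in 8 lists of 108 genes in all, of which 84 were tested. At 3.0 Gy 11 rose and 38 fell of 84, or 58.3%, beside 49.1% of all tested genes, with a median log2 difference of -0.24 beside 0.04. At 1.0 Gy 6 rose and 5 fell (13.1%, beside 17.3%), and at 0.5 Gy 3 rose and 5 fell (9.52%, beside 10.2%). After a repeated quantile normalization, the higher share of all called genes at 3.0 Gy was 52.6% in place of 40.6%, and the pathway lists had 18 higher and 35 lower.

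Among accessory and trafficking proteins 1 rose and 5 fell of 12 at 3.0 Gy (50%, beside 49.1% of all genes). Ly86 (MD-1), the partner of the Tlr4 relative Cd180, stood at 9.97, 9.18, 9.69, 10.25 and 9.95 in controls and at 7.34, 8.60, 7.39 and 6.69 at 3.0 Gy. Every 3.0 Gy value of Ly86 lay below all controls, as for 22.9% of all tested genes, and the difference was -2.30 ± 0.29 (SE, adjusted p = 3.26e-06). Cd36, a scavenger receptor that assists Tlr2 with Tlr6, had a log2 difference of -2.31, and Slc15a4, an endolysosomal transporter needed for signalling by Tlr7 and Tlr9, one of -1.90. Cd36 stood at -0.49 at 0.5 Gy, which did not pass (adjusted p = 0.118), and at -1.09 at 1.0 Gy (adjusted p = 0.000348). Red cell and reticulocyte markers moved with Cd36, with list medians of -0.62, -1.48 and -2.29 from 0.5 to 3.0 Gy. Of their 5 tested genes 4 were lower and 1 higher at 3.0 Gy, where 29.2% of all genes were lower and 20% higher. The mean of the list ranged from 9.19 to 10.21 in controls and from 8.07 to 8.46 at 3.0 Gy. Over the same doses the T cell list had medians of -0.52, -0.71 and -1.58 and the B cell list -0.32, -0.40 and -2.56. Platelet markers went the other way, with medians of 1.06, 1.59 and 1.89. The part of these markers in the Cd36 result was not tested. Unc93b1, which carries the endosomal receptors out of the endoplasmic reticulum, went from 7.57 ± 0.25 to 6.98 ± 0.29 (adjusted p = 0.00887). Hsp90b1, the chaperone that folds most Toll-like receptors, rose by 1.05 at 1.0 Gy (adjusted p = 0.00891) and fell by 0.97 at 3.0 Gy (adjusted p = 0.00554), and the first call ended once the 18S level was a term, with a difference of 1.22 (adjusted p = 0.435). Lamp5, a lysosomal membrane protein, was the member called higher, at 2.95 ± 0.22 in controls and 4.17 ± 0.37 at 3.0 Gy. Its control mean lay below the array medians, and it was not tested in the fits that left out a 3.0 Gy array, so that it entered the tests through the group where it is high and its call is no support for a rise of the list. Cd14 and Ly96, the partners of Tlr4, did not pass, with Cd14 at 5.01 ± 0.37 in controls and 5.44 ± 0.66 at 3.0 Gy and Ly96 at 3.75 ± 0.28 and 3.83 ± 0.36.

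Endosomal proteases and nucleases trim nucleic acid receptors and their ligands. Of the 9 tested, 6 fell at 3.0 Gy (66.7%, where 29.2% of all genes were called lower), with a median of -1.09. They were Ctsh (-1.77), Ctss (-1.54), Ctsb (-1.23), Pld4 (-1.13), Pld3 (-1.09) and Lgmn (-1.03). Among the TIR adaptors 1 rose and 1 fell of 5 (40%, beside 49.1% of all genes), Sarm1 (0.46, adjusted p = 0.0179) and Pik3ap1 (-0.51, adjusted p = 0.00895). The call of Sarm1 ended without control replicate 1 or 3.0 Gy replicate 4 (adjusted p of 0.0505 and 0.0659), and that of Pik3ap1 with the mean of its probe sets (-0.30, adjusted p = 0.0565). Myd88, the adaptor shared by nearly all of the receptors, stood at 6.33 ± 0.21 in controls and 6.47 ± 0.22 at 3.0 Gy and did not pass.

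Of 17 kinases and ubiquitin ligases 10 fell at 3.0 Gy and 0 rose (58.8%, beside 29.2% of all genes lower and 20% higher), with a median of -0.50. The 4 with the smallest p were Ikbkb, the kinase that releases NF-kB (-1.77 ± 0.23 SE), Ube2n, a ubiquitin-conjugating enzyme that acts with Traf6 (-1.07 ± 0.14), Tbk1, the kinase of Irf3 (-1.52 ± 0.20), and Tab3, a subunit of the TAK1 complex (-1.36 ± 0.23). Among 11 negative regulators 1 rose and 4 fell at 3.0 Gy (45.5%, beside 49.1% of all genes). The member that rose was Tollip, which restrains Irak kinases and is also involved in endosomal sorting. Tollip stood at 7.74, 8.01, 8.03, 8.02 and 7.98 in controls, at 8.78, 8.72, 8.89 and 8.91 at 0.5 Gy, at 9.51, 8.93, 9.10 and 9.36 at 1.0 Gy and at 9.62, 9.24, 9.96 and 9.90 at 3.0 Gy. All irradiated mice lay above all controls for Tollip, with differences of 0.87, 1.27 and 1.72 that passed at each dose (adjusted p = 0.000446 at 0.5 Gy). Every array of a dose lay above all controls for 6.66% of tested genes at 0.5 Gy, 7.88% at 1.0 Gy and 14.2% at 3.0 Gy. At 0.5 Gy the call of Tollip ended once the 18S level was a term (1.07, adjusted p = 0.0558). Platelet markers were also higher at each dose, in 11 of 11 genes, with means of 9.05 to 9.55 in controls and 10.73 to 11.44 at 3.0 Gy, and their part in the Tollip result was not tested. Of all tested genes 5.24% were called higher at 0.5 Gy, 8.8% at 1.0 Gy and 20% at 3.0 Gy. Tnfaip3 (A20), Otud5, Sigirr and Cyld fell at 3.0 Gy, with log2 differences of -1.004, -1.09, -1.08 and -0.56. At 0.5 Gy 5 of the 11 negative regulators were called (45.5%, beside 10.2% of all genes). Besides Tollip they were Irak3 (0.51, adjusted p = 0.0178), a kinase relative that blocks Irak signalling, Inpp5d (0.64, adjusted p = 0.0263), the phosphatase SHIP-1, Sigirr (-0.55, adjusted p = 0.0361) and Cd300a (-0.59, adjusted p = 0.00806). None of these 5 calls held once the 18S level was a term, with adjusted p from 0.0558 for Tollip to 0.684 for Sigirr. In that fit Inpp5d stood at 1.20, Cd300a at -0.59, Irak3 at 0.31 and Sigirr at -0.37, so that the differences of Tollip, Inpp5d and Cd300a were about as large as before or larger. With the mean of the gene's probe sets, the calls of Irak3 (0.29, adjusted p = 0.123), Inpp5d (0.40, adjusted p = 0.0507) and Cd300a (-0.25, adjusted p = 0.143) ended too. Without 1 array, the calls of Inpp5d and Sigirr each held in 11 of 17 fits and that of Irak3 in 15 of 17. Those of Tollip and Cd300a held in 17 of 17.

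**Figure D5:**
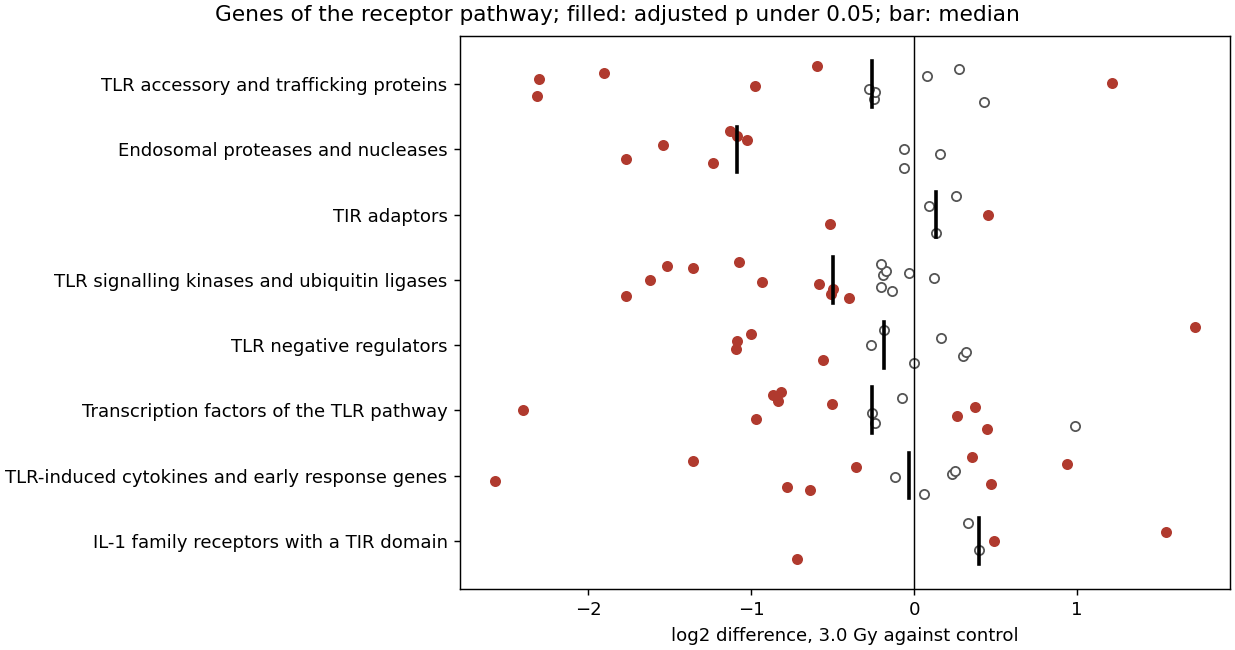
Log2 difference between 3.0 Gy and control (x axis) of each tested gene in the 8 pathway lists (y axis), filled where the adjusted p was under 0.05, with a bar at the list's median. Endosomal proteases and nucleases (median -1.09) and kinases and ubiquitin ligases (median -0.50) lie mostly to the left, and Tollip, at 1.72, lies farthest to the right.

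Of 13 transcription factors of the pathway 3 rose and 6 fell at 3.0 Gy (69.2%, beside 49.1% of all genes). By direction, 20% of all tested genes were called higher and 29.2% lower in that comparison. Irf8, a factor of B cells, monocytes and dendritic cells, fell from 7.21 ± 0.34 to 4.81 ± 0.74 (-2.40 ± 0.27 SE, adjusted p = 7.61e-07). Irf3 (-0.97), Rela (-0.87) and Relb (-0.82), the last 2 being NF-kB subunits, fell too, while Atf3 rose by 0.45 and Jun by 0.37. Jun lost its call when 3.0 Gy replicate 2 was left out (adjusted p = 0.053) and with the mean of its probe sets (adjusted p = 0.068). Of the 12 tested cytokines and early response genes 3 rose and 5 fell (66.7%, beside 49.1% of all genes). Cd83 (-2.57 ± 0.17 SE), Nfkbia, the NF-kB inhibitor (-1.36), Cd40 (-0.78) and Ccl5 (-0.64) were among those that fell, while Il1b rose by 0.94 ± 0.28 (SE, adjusted p = 0.0102) and Cd80 by 0.47. The other 9 genes of that list, Il6 and Il10 among them, were below the filter. Of 5 tested receptors of the interleukin-1 family, most of which share the TIR domain, Il1r2 (1.55 ± 0.23 SE) and Il1r1 (0.49) rose and Il18r1 (-0.72) fell. That is 60% of the 5, beside 49.1% of all genes. Il1r2 is a decoy receptor without a TIR domain, although the list is named for it, and it is also in the neutrophil list.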

How the data were processed

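Whole blood of 17 mice was collected into RNAprotect tubes, and 200 ng of RNA per mouse was labelled for 1 Affymetrix array each, per the labels' protocols. The deposited table gives log2 values for 45101 probe sets, made with RMA in R 3.3.2 per the submitters' processing notes, without further settings in the sources used here. RMA is meant to make array distributions alike, and it compresses differences of dim probe sets. The array medians still averaged 3.56 at 3.0 Gy and 3.51 in controls (exact permutation p = 0.0317). Of the probe sets, 34945 had 1 symbol in the platform annotation, 932 several, 9160 none, and 64 were controls, which served no gene.

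From these log2 values, 4 group means, a slope on dose and an F test were fitted with limma 3.58.1 in R 4.3.3 (lmFit, eBayes), after a check on simulated data. All p-values are two-sided. The number of arrays limits the precision.

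Receptors were fixed by symbol. Pathway genes were named when called at a dose, at most 4 per list and direction by smallest p at 3.0 Gy. Unc93b1 and Nfkb2 were named beyond that limit. Ctsb, Pld4, Cd300a, Cd14, Ly96 and Myd88 were named after their values were seen. For likeness, 3 genes were named for each of 4 receptors. The receptors and lists were chosen with earlier results of these data known. Alternatives were another filter, scaling, probe set rule, array weights, the 18S level, pairs of groups alone and leaving out each array. No arrays were identical, and no batch is given.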

Additional observations from a re-analysis of the deposited data

Results flagged for a closer look

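Of 40 groups of arrays (10 receptors in 4 groups) 2 held an array that stood apart from the rest of its group by Dixon's test at the 95% level, which chance gives in about 1 group of 20. Tlr9 in control replicate 5 stood at 4.77, where the next highest control had 4.38. Tlr3 in 3.0 Gy replicate 3 stood at 2.77, where the next highest had 2.09, and both values of Tlr3 lie below the array median.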

How the results depend on the processing

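Of 787 values of single receptors under the alternatives, 53 lost a call, 2 gained one and 729 stayed on their side of the threshold. The sign differed from that of the reported value in 36, of which 33 were called in neither fit; these were Tlr2, Tlr3, Tlr4, Tlr6, Tlr7 or Tlr9 against control. The 3 that turned from a call, all between 3.0 and 1.0 Gy, were Tlr4 by 1418162_at (-0.31) and 1442827_at (-0.018) and Tlr7 by 1419848_x_at (0.21). Among pathway genes at 3.0 Gy, Nfkb2 turned to 0.12 with quantile normalization repeated and Irf5 to -0.052 with the mean of its probe sets. Neither cause was tested. At 0.5 Gy the count of receptors called was 1 with array weights, in place of 0. At 1.0 Gy it was 2, and 0 with no filter, with only the 2 groups or with the 18S level, 1 with the 75th percentile filter, arrays centred on their medians or array weights, and 0 to 2 without 1 array. At 3.0 Gy it was 4, and 2 with the 75th percentile filter, which left fewer genes, and 3 to 4 without 1 array. Between 1.0 and 0.5 Gy it was 1 with array weights. Between 3.0 and 1.0 Gy it was 4, and 1 with that filter, 2 when probe sets were averaged and 0 with the 18S level. Between 3.0 and 0.5 Gy it was 2, and 1, 1 and 0 under the same settings. The slope count of 3 became 1 with that filter and 5 with quantile normalization, and 2 to 4 without 1 array. The F test count of 5 became 2 with that filter, 3 with the mean of probe sets, 2 with the 18S level, and 3 to 6 without 1 array. Pathway counts were 8 at 0.5 Gy (14 with array weights, 4 with the 18S level, 3 to 11 without 1 array), 11 at 1.0 Gy (17 with quantile normalization, 3 with the 18S level, 9 to 13 without 1 array) and 49 at 3.0 Gy (44 to 50 without 1 array). At 0.5 Gy the pathway count fell to 4 without control replicate 4 or 0.5 Gy replicate 1, 3 without 0.5 Gy replicate 3 and 5 without 0.5 Gy replicate 4.

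Of 24 pairs of arrays with the same replicate number, 11 had deviations correlated above 0.1, with a median r of 0.0666 and a range from -0.45 to 0.49. Pairs with different numbers were not set beside them, so the check does not settle whether the numbers pair the mice. With the replicate number as a block, 0, 1 and 4 receptors were called at 0.5, 1.0 and 3.0 Gy, and Tlr5 at 1.0 Gy was not (0.25, adjusted p = 0.145).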

Other observations

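Tlr12, a further receptor of the mouse family that was not among the 10, had 2 probe sets, both above the array median in 17 of 17 arrays. Probe set 1437931_at stood at 5.14 ± 0.16 (SD, n = 5) in controls and 5.35 ± 0.10 (n = 4) at 3.0 Gy, a difference of 0.20 (limma adjusted p = 0.161 over all single-symbol probe sets). Probe set 1438329_at of Tlr12 went from 4.93 ± 0.09 to 5.32 ± 0.24, a difference of 0.40 ± 0.12 (SE, adjusted p = 0.0165). The Tlr12 probe sets thus differed in whether the rise at 3.0 Gy passed.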
